A study of Mus musculus with 17 samples.

Results

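The transcripts of 10 neutrophil granule genes were followed through 17 RNA-seq libraries of endothelial cells sorted from mouse bone marrow. The genes were S100a8, S100a9, Ngp, Camp, Ltf, Lcn2, Elane, Mpo, Lyz2 and Retnlg, taken by symbol from the 49585 gene identifiers counted, and all 10 had a row in every library. The genes were chosen by their counts in the 2-week KO libraries against the 2-week WT libraries, so the 2-week values are given as a description with no test, and only the 4-week libraries were tested. The study deleted Eng, which encodes the TGF-beta co-receptor Endoglin, in endothelium. The KO animals carried a tamoxifen-inducible Cre (CreERT2) under the endothelial Cdh5 promoter and an Eng allele with loxP sites around exons 5 and 6. All animals, WT and KO, received tamoxifen at 8 weeks of age, and whether Cre was present in the WT animals is not stated. The groups were WT at 2 weeks after tamoxifen (n = 4), KO at 2 weeks (n = 4), WT at 4 weeks (n = 5) and KO at 4 weeks (n = 4). The names of libraries give sex and number from the titles, so that KO m2 is male 2 of the KO group. The sort kept CD31+ cells that lacked CD45 and Ter119; the protocol also required Sca1, which the design text leaves out.

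Neutrophils pack antimicrobial proteins into granules that are made one after the other while the cell matures in the marrow. Promyelocytes transcribe the azurophil granule genes, which include Mpo (myeloperoxidase) and Elane (neutrophil elastase). Myelocytes and metamyelocytes switch to the specific granule genes, among them Ltf (lactoferrin), Camp (the cathelicidin precursor), Ngp (neutrophilic granule protein) and Lcn2 (lipocalin-2). Gelatinase granule genes and the receptors of segmented cells follow, and Retnlg (resistin-like gamma) belongs to this late set. S100a8 and S100a9, the subunits of cytosolic calprotectin, and Lyz2 (lysozyme) are transcribed through several stages and in monocytes, so they are kept apart from the staged classes below. C/EBP factors and the ETS factor PU.1 are known regulators of these genes, with C/EBP-epsilon tied to the specific granule genes.

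Positions are those of GENCODE M21 on assembly GRCm38. S100a8 (ENSMUSG00000056054) spans chr3:90668978-90670035 on the plus strand, and S100a9 (ENSMUSG00000056071) spans chr3:90692632-90695721 on the minus strand. Camp (ENSMUSG00000038357, chr9:109847379-109849617, minus), Ngp (ENSMUSG00000032484, chr9:110419747-110423012, plus) and Ltf (ENSMUSG00000032496, chr9:111019271-111042767, plus) lie on chromosome 9. Lcn2 (ENSMUSG00000026822) spans chr2:32384633-32388252 on the minus strand. Elane (ENSMUSG00000020125, chr10:79886247-79888215, plus) and Lyz2 (ENSMUSG00000069516, chr10:117277331-117282321, minus) are both on chromosome 10. Mpo (ENSMUSG00000009350) spans chr11:87793581-87804413 on the plus strand, where the annotated gene Gm11505 overlaps it on the minus strand, so that reads of the overlap cannot be assigned if counting ignored strand. Retnlg (ENSMUSG00000022651) spans chr16:48872621-48874496 on the plus strand. All 10 are annotated as protein-coding, and counts cover their exons. Lyz2 has a near copy, Lyz1, which held at most 2 counts in any library.

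The promoters of 4 of the genes, 2 specific and 2 azurophil, are shown as examples of the forms searched, and were picked because they hold them. Each window runs from 250 bases before to 50 bases after the RefSeq start on GRCm38.p6, 5′ to 3′ on the gene's strand, and all 10 genes matched a window. In Ngp (chr9:110419558-110419857, plus) and Ltf (chr9:111019042-111019341, plus) the capitals mark TTGCNNAA on either strand, a form of the C/EBP core. In Mpo (chr11:87793534-87793833, plus) and Elane (chr10:79886062-79886361, plus) the capitals mark GAGGAAGT on either strand, the PU.1 core. The GENCODE start of each of these genes lies inside its window.
Ngp: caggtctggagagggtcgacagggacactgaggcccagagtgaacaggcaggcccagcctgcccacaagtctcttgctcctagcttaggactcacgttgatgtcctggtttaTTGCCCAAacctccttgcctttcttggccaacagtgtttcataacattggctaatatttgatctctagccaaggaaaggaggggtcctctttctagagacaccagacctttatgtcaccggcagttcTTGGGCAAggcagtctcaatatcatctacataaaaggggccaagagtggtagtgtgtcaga
Ltf: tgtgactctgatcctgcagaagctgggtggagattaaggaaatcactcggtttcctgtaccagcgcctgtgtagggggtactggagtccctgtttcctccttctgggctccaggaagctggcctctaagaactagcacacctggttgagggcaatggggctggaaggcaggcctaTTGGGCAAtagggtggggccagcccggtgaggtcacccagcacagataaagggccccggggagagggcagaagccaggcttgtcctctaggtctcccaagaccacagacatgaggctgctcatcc
Mpo: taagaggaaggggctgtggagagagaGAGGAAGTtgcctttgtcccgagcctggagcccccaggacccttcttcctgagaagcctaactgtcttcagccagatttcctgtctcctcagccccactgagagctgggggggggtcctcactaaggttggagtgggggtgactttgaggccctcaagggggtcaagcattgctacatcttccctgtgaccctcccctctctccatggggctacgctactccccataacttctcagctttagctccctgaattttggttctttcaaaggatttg
Elane: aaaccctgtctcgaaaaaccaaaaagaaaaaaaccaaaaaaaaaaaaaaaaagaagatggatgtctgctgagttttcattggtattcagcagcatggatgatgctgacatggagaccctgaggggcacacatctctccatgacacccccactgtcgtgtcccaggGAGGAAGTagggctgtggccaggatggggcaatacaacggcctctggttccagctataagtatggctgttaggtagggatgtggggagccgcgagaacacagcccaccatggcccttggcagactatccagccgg

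The form TTGCNNAA occurred in 5 of the 10 promoters, those of S100a9, Ngp, Ltf, Lcn2 and Retnlg, and in 10.8% of all 27025 mouse promoter windows of the same length. The form GAGGAAGT occurred in 3, those of S100a8, Elane and Mpo, and in 3.28% of all windows. No promoter of the 10 held both forms. The forms did not sort the genes by class: Camp held neither, S100a8 held the PU.1 form, and of the other azurophil genes Prtn3 held GAGGAAGT, Ctsg held neither and Ms4a3 held TTGCNNAA. The shorter GAGGAA was also in Ltf and Lcn2. All forms were searched on both strands, and the other 8 were commoner or rarer spellings. Of the C/EBP spellings, TTNNGNAA was in 7 of the 10 and in 40.7% of all windows, TTNNNNAA, which contains the other C/EBP spellings, was in 7 and in 61.7%, and TTGCGCAA was in 0 and in 0.185%. The shorter PU.1 spellings, both contained in the longer one, were AGGAAGT, in 4 of the 10 and 9.57% of all windows, and GAGGAA, in 5 and 28.3%. For RUNX factors, TGTGGT was in 3 and 16.9% and AACCACA in 1 and 5.37%. For MYB, AACNG was in all 10, and in 80.4% of all windows. These matches are descriptions of letters, and no factor's binding was measured.

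The libraries held 20477400 to 40882715 counts each, so that 3 counts, taken as the floor of detection, correspond to 0.0734 to 0.147 CPM (a gene's counts scaled to the library total, in mega-counts). The 2-week libraries had counts for 10886 to 13583 genes and 22.2% to 29.5% mitochondrial counts, against 15996 to 21235 genes and 4.66% to 8.99% at 4 weeks, so time and library make-up cannot be told apart and no level was compared across time by test. Eng was lower in every KO library than in every WT library of its time, at 225 to 347 CPM against 705 to 1307 CPM at 2 weeks and at 274 to 1647 CPM against 2400 to 2735 CPM at 4 weeks, where KO m2 was the highest of the KO libraries. The 10 endothelial genes checked summed to 4716 to 7023 CPM at 2 weeks and 11404 to 14338 CPM at 4 weeks, and at least 9 of them had 3 or more counts in each library. The 2-week KO libraries m2 and m3 stood apart from all others in the granule genes. In bulk RNA, fewer cells of a type and less RNA per cell cannot be told apart.

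At 2 weeks the 10 genes together took 4444 CPM in KO m2 and 3413 CPM in KO m3, against 267 CPM in KO f4 and 124 CPM in KO f1. The WT libraries held 57.2 (f1), 32.2 (f4), 22.6 (m2) and 140.2 CPM (m3). Both male KO libraries were thus more than an order of magnitude above the rest of the 2-week libraries, and the groups overlapped because KO f1 was below WT m3. The group means were 2062 ± 2197 CPM in KO and 63.1 ± 53.5 CPM in WT (SD, n = 4 each), a 32.7-fold ratio. Without KO m2 and KO m3 the ratio was 3.10-fold. Within sex it was 4.37-fold in females and 48.2-fold in males (2 libraries of each genotype). At their height the 10 genes made up 0.444% of all counts, in KO m2.

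**Figure D1:**
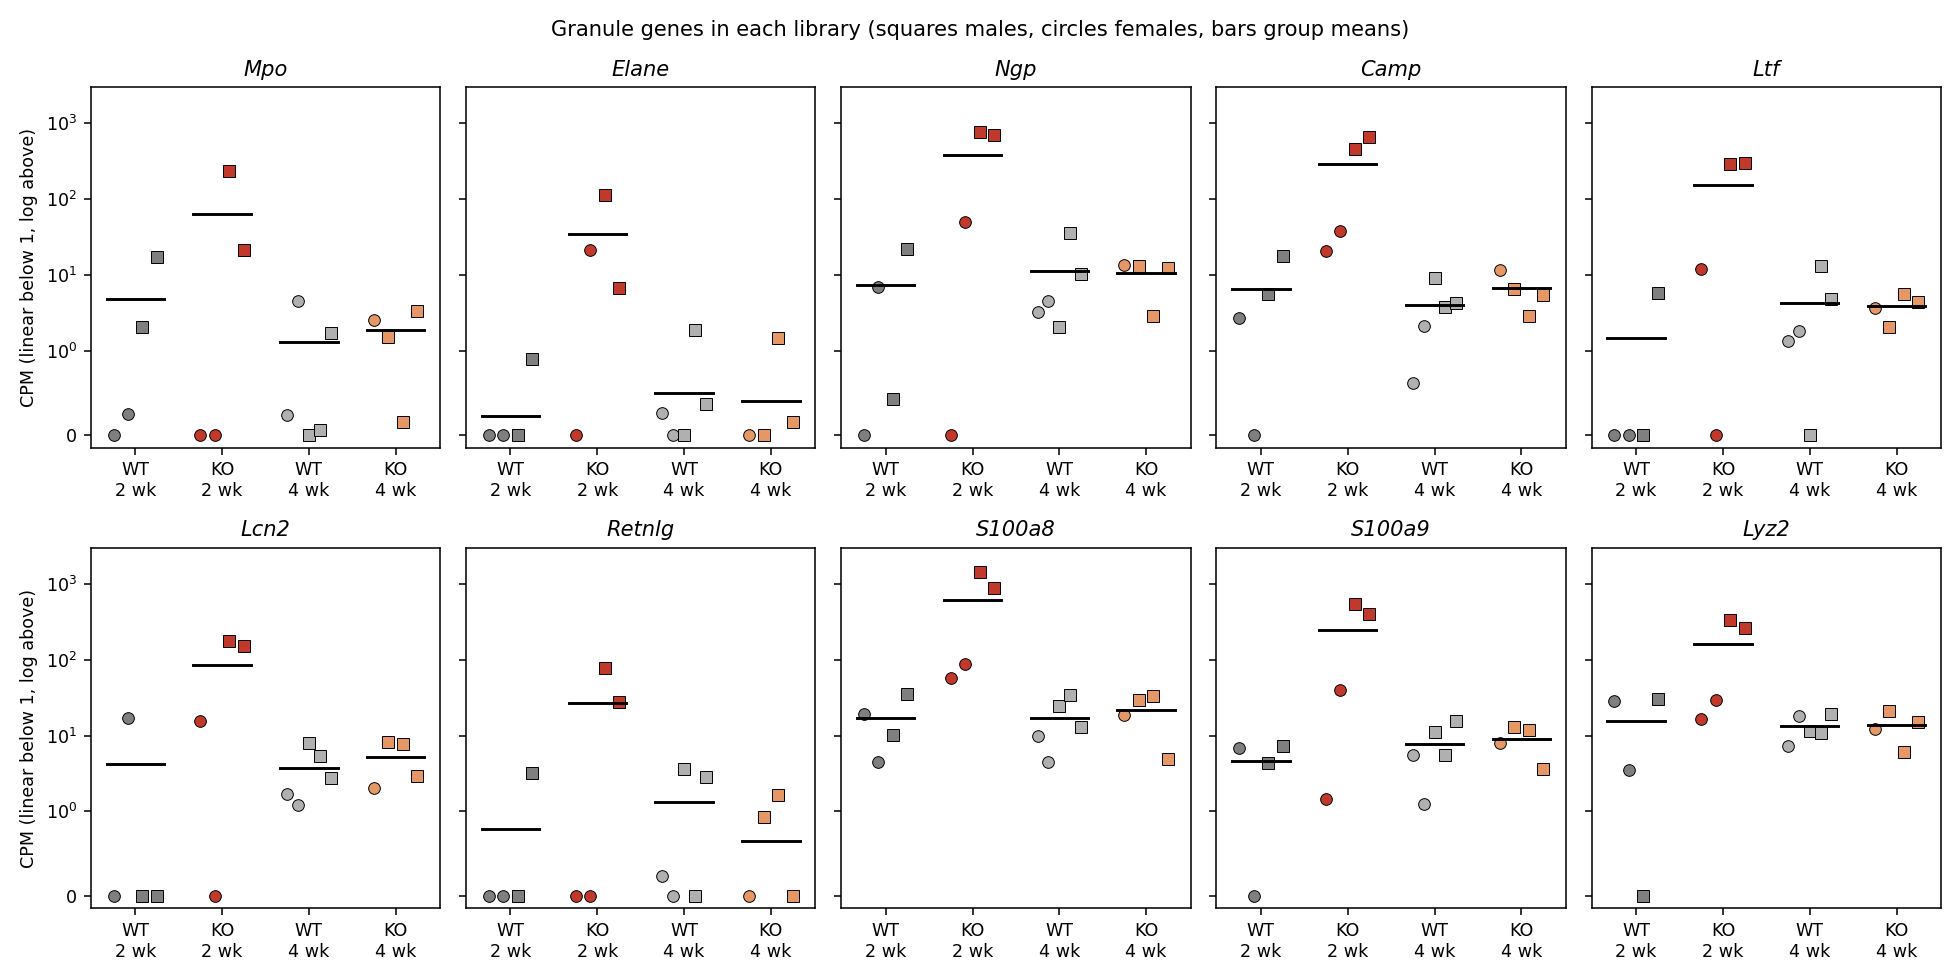
CPM of each of the 10 genes (vertical axis, linear below 1 and log above) in the libraries of the 4 groups (horizontal axis); squares are males, circles females, bars group means. At 2 weeks KO m2 and KO m3 are the highest libraries for 9 of the genes, while for Elane KO f4 (21.6 CPM) is above KO m3 (6.82 CPM).

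Of the azurophil granule genes, Mpo had 232 CPM in KO m2, 21.1 CPM in KO m3 and 0 counts in KO f1 and KO f4. The WT libraries held 0, 0.245, 2.06 and 17.2 CPM in f1, f4, m2 and m3. The second-highest KO library was therefore close to the highest WT library, and the 6901 counts of KO m2 were the main part of the KO mean of 63.4 ± 113 CPM (SD, n = 4). Elane had 113 CPM in KO m2, 21.6 CPM in KO f4, 6.82 CPM in KO m3 and 0 counts in KO f1. In WT it was at 0 counts in 3 libraries and at 0.901 CPM in m3. Elane was thus present in KO f4, with 732 counts, where Mpo had none.

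Of the specific granule members, Ngp, Ltf and Lcn2 were within 1.18-fold between the male KO libraries, and Camp was 1.43-fold higher in KO m3. Ngp had 769 CPM in KO m2, 704 CPM in KO m3, 50.8 CPM in KO f4 and 0 counts in KO f1. Its WT values were 0, 6.85, 0.430 and 22.2 CPM in f1, f4, m2 and m3. Ngp overlapped between the genotypes through KO f1, the KO library with none. Camp had 459 CPM in KO m2, 657 CPM in KO m3, 20.7 CPM in KO f1 and 37.7 CPM in KO f4. Its WT values were 2.71, 0, 5.62 and 17.9 CPM in the same order, all below the lowest KO library. Ltf, an iron-binding protein and a classic marker of specific granules, had 294 CPM in KO m2, 305 CPM in KO m3, 12.0 CPM in KO f1 and 0 counts in KO f4. In WT it was seen in m3 alone, at 5.86 CPM. Lcn2, which binds bacterial siderophores, had 179, 152 and 15.8 CPM in KO m2, m3 and f1 and 0 counts in KO f4. Its one WT library with counts was f4, at 17.0 CPM, slightly above KO f1.

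Retnlg, the late gene among the 10, had 78.8 CPM in KO m2 and 27.8 CPM in KO m3. It had 0 counts in both female KO libraries and in 3 WT libraries, and 3.18 CPM in WT m3. Its counts were too few across libraries for it to pass the filter on low counts at 2 weeks, which the other 9 passed. S100a8, of the genes of several stages, was the only one of the 10 with counts in all 8 of the 2-week libraries. It had 1442 CPM in KO m2, 875 CPM in KO m3, 87.3 CPM in KO f4 and 57.0 CPM in KO f1. WT libraries had 19.1, 4.50, 10.2 and 35.5 CPM of S100a8 in f1, f4, m2 and m3, so the genotypes did not overlap. S100a9 had 538 and 403 CPM in KO m2 and m3, 40.0 CPM in KO f4 and 1.46 CPM in KO f1. Its WT libraries held 6.92, 0, 4.33 and 7.21 CPM, and 3 of them were above KO f1. Lyz2, the lysozyme of myeloid cells, had 340.4 and 263 CPM in KO m2 and m3, 29.7 CPM in KO f4 and 16.7 CPM in KO f1. Its WT libraries held 28.5, 3.55, 0 and 30.2 CPM, so that both female KO libraries lay inside the WT range.

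Across the 10 genes the KO mean exceeded the WT mean for 10 at 2 weeks, with ratios from 10.4 for Lyz2 to 157 for Elane. Without KO m2 and KO m3 it did so for 8, with ratios from 1.49 for Lyz2 to 47.9 for Elane, while Mpo and Retnlg had no counts in the female KO libraries. The groups did not overlap for 2 of the 10, S100a8 and Camp, with or without KO m2 and KO m3. Over all 10477 genes tested at 2 weeks, 1.58% had every KO library above every WT library. Because this contrast chose the genes, nothing is read from that comparison. No gene among the 10477 had an adjusted p under 0.05 in edgeR's quasi-likelihood test (0.0% called, 276 at an unadjusted p under 0.05), while DESeq2 called 149 and limma voom with quality weights called 12. In the edgeR fit the log2 fold changes of the 9 genes tested were positive, from 0.59 for Mpo to 8.68 for Elane with a median of 4.47, against a median of -0.06 over all genes. Without KO m2 and KO m3, 7 of the 9 fitted values stayed positive: 2.57 for S100a8, 2.56 for S100a9, 2.92 for Ngp, 4.38 for Camp, 10.64 for Ltf, 11.55 for Elane and 0.49 for Lyz2. Those of Lcn2 (-0.15) and Mpo (-5.11) were negative. Mpo also turned negative without WT m2 (-1.51), WT m3 (-1.49) or KO m2 (-1.62) alone, and Lcn2 ran from 1.44 without WT m3 to 14.70 without WT f4. Fitted values of genes with many zero counts, such as Ltf and Elane, depend on the small count added before taking logarithms.

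The class that the 2-week transcripts belonged to was described with 3 lists that include the members: 5 azurophil genes (Mpo, Elane, Prtn3, Ctsg, Ms4a3), 11 specific granule and myelocyte-stage genes, and 18 gelatinase granule and late genes. Specific granule genes gave the largest share of the counts of the 3 lists in every 2-week KO library, at 99.8% in f1, 81.0% in f4, 72.3% in m2 and 93.0% in m3. In WT the same share was 26.9% in f1, 74.5% in f4, 25.3% in m2 and 75.2% in m3, and the genotypes overlapped because WT f4 and WT m3 exceeded KO m2. Each of the low WT shares rests on 1 late gene, since Mmp9 gave all 1362 late counts in WT f1 and the chemokine gene Ccl6 gave 493 of 515 in WT m2. The WT shares rest on 779 to 3490 counts of the 3 lists, and the KO shares on 1296 in f1, 6545 in f4, 84907 in m2 and 80848 in m3. In KO f1 the specific counts came from 3 of the 11 genes, Camp (552), Lcn2 (421) and Ltf (321), and in KO f4 from 4. At 4 weeks the specific share was 59.9% to 85.3% in WT and 42.1% to 86.5% in KO. The lowest of these, in KO f2, also rests on Mmp9, which gave 1062 of its 1201 late counts. Counted per kilobase of exon, the specific share at 2 weeks was 99.9% in KO f1, 78.5% in KO f4, 73.8% in KO m2 and 92.6% in KO m3, and 48.5%, 51.2%, 42.2% and 82.1% in WT f1, f4, m2 and m3. On that scale the genotypes still overlapped, through WT m3. At 4 weeks it was 66.8% to 81.9% in WT and 64.1% to 90.2% in KO.

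**Figure D2:**
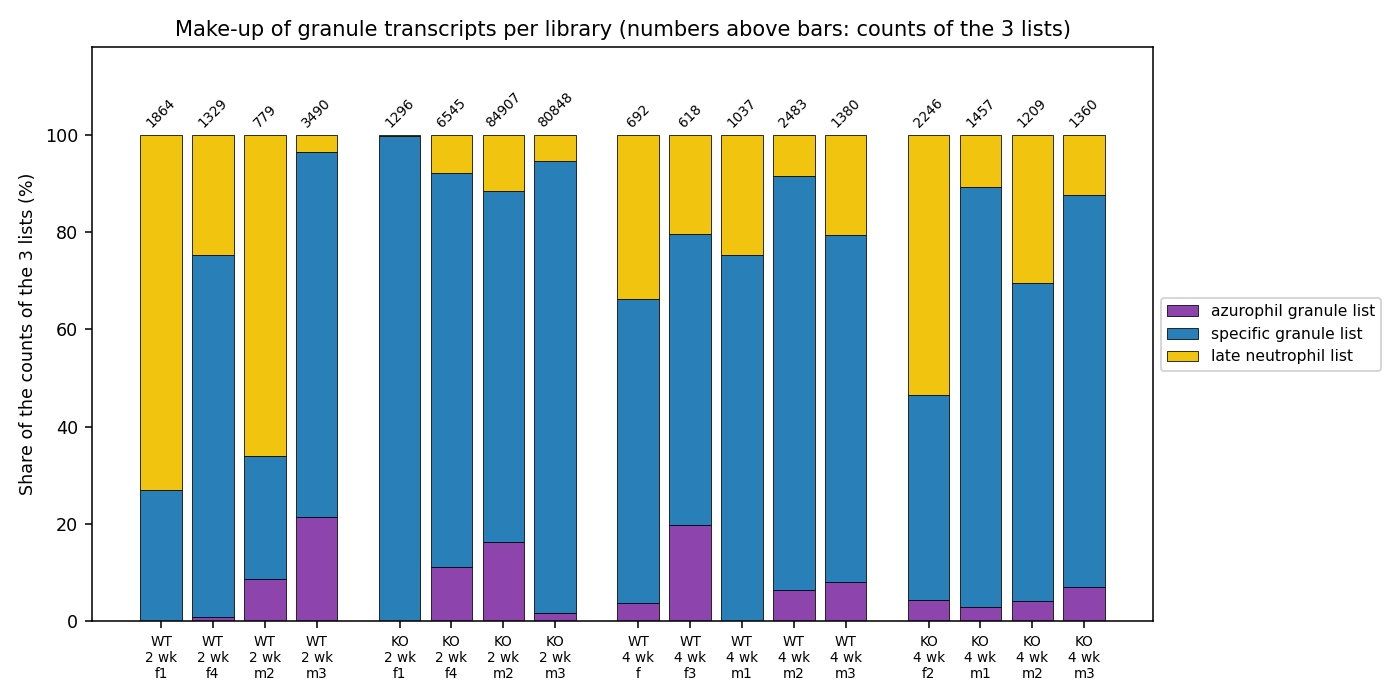
Share of the counts of the azurophil, specific and late neutrophil lists (vertical axis, percent of the counts of the 3 lists) in each of the 17 libraries (horizontal axis), with that count printed above each bar. The azurophil share is 16.2% in KO m2 and 1.60% in KO m3 at 2 weeks, and the specific share is the largest in all 4 of the 2-week KO libraries.

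The azurophil genes separated KO m2 from KO m3. Their share was 16.2% in KO m2 (Wilson 95% interval 16.0% to 16.5%) and 1.60% in KO m3 (1.52% to 1.69%). In KO f4 it was 11.2% (10.4% to 12.0%), all of it from Elane, and in KO f1 no azurophil gene had a count, where 3 counts correspond to 0.112 CPM. These intervals and floors cover counting error only, since amplified fragments without molecular identifiers are not independent molecules. In KO m2 all 5 azurophil genes were detected, with 1721 counts of Prtn3 (proteinase 3), 1439 of Ctsg (cathepsin G) and 358 of Ms4a3, a gene of granulocyte-monocyte progenitors, beside Mpo and Elane. In KO m3 only 3 of the 5 had counts, with 767 for Mpo, 248 for Elane and 280 for Ctsg, and Prtn3 and Ms4a3 were at 0. Outside these libraries, Prtn3 and Ms4a3 were at 0 in all of the other 2-week libraries and Ctsg had 62 counts in WT m3.

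Summed, the azurophil list had 463 CPM in KO m2 and 35.6 CPM in KO m3, a 13.02-fold difference between these libraries. The specific list had 2068 CPM in both. The late list had 327 CPM in KO m2 and 119 CPM in KO m3, and the genes of several stages had 2320.0 and 1541 CPM. For single genes, the ratio of KO m2 to KO m3 was 11.0 for Mpo (95% counting interval 10.2 to 11.9) and 16.5 for Elane (14.5 to 18.9). It was 1.09 for Ngp, 0.964 for Ltf, 1.18 for Lcn2 and 0.699 for Camp, so Camp was the higher in KO m3. Retnlg was 2.84-fold higher in KO m2. The ratio of specific to azurophil CPM was 4.46 in KO m2, 58.1 in KO m3 and 7.25 in KO f4. These are comparisons of single libraries and carry no replicate check.

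**Figure D3:**
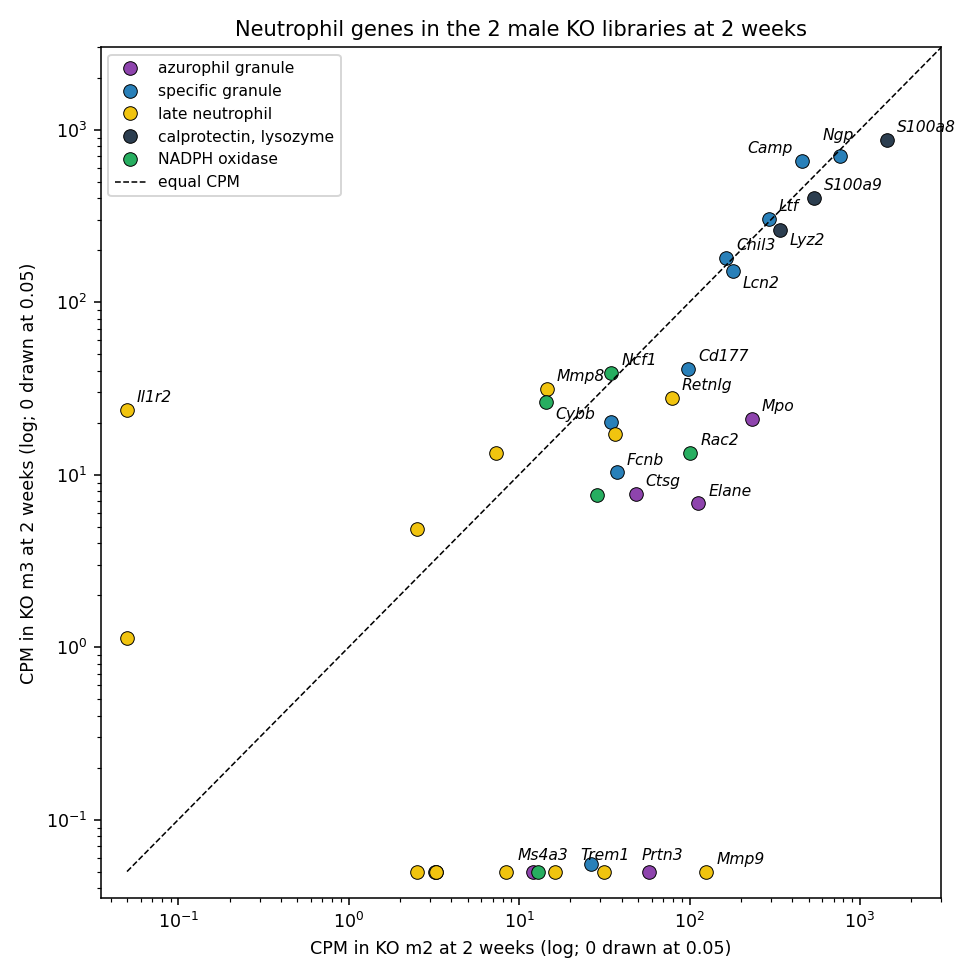
CPM of neutrophil genes in KO m2 (horizontal axis, log) against KO m3 (vertical axis, log) at 2 weeks, coloured by class, with the dashed line marking equal CPM. Ngp, Ltf and Lcn2 lie near the line, whereas Mpo (232 against 21.1 CPM) and Elane (113 against 6.82 CPM) lie below it.

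The remaining specific granule genes differed among themselves. Chil3, a chitinase-like protein of developing neutrophils, had 4880 counts in KO m2 and 6555 in KO m3. Cd177, a neutrophil surface protein, had 2929 and 1487 counts and was at 0 in the other 2-week libraries. Fcnb (ficolin B) had 1109 and 375, and Pglyrp1, a peptidoglycan recognition protein, had 1025 and 731. Pglyrp1 also had 1259 counts in KO f4, 354 in WT m3, 264 in WT f1 and 108 to 339 in every 4-week library. Ifitm6 had 782 counts in KO m2, 2 in KO m3 and 133 in WT m3, while Olfm4 (97 counts) and Itgb2l (95 counts) were detected in KO m2 and not in KO m3. All 11 specific genes had at least 3 counts in KO m2, and 8 did in KO m3.

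Late genes were detected in part. Of the 18, KO m2 held 11 and KO m3 held 7, and 5 were in both. Mmp8 (neutrophil collagenase) had 431 and 1139 counts in KO m2 and m3, and Wfdc21 had 1084 and 623. Mmp9, the gelatinase of the gelatinase granule, had 3736 counts in KO m2 and 0 in KO m3, but also 1362 in WT f1. Trem1 was seen in KO m2 alone among the 2-week libraries, with 931 counts, and Il1r2, the decoy receptor of interleukin-1, in KO m3 alone, with 863. The receptors of mature neutrophils Cxcr2, Csf3r and Fpr2 were at 0 counts in both KO m2 and KO m3, where 3 counts correspond to 0.101 CPM in m2 and 0.0825 CPM in m3. This floor covers counting error only, and other genes, such as Mmp9, were at 0 in one of these libraries and abundant in the other. Csf3r is also expressed by early granulocyte precursors, so a count of 0 for it does not point to 1 stage.

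The NADPH oxidase genes, which make the respiratory burst of phagocytes, were also high in KO m2 and KO m3. Their 5 genes summed to 192 CPM in KO m2 and 86.5 CPM in KO m3, against 0 to 28.4 CPM in the other 2-week libraries. Ncf1 had 1034 and 1419 counts in KO m2 and m3 and at most 1 count in the other 2-week libraries. Cybb had 425 and 964 counts there and at most 3 elsewhere at 2 weeks. Rac2, which is expressed across blood cells, had 3005 and 485 counts in KO m2 and m3 and 747 and 928 in KO f1 and KO f4. Of the transcription factors of granulopoiesis, Cebpe had 405 counts in KO m3 and 0 in KO m2. Cebpa had 165 in KO m3, 0 in KO m2 and 34 in WT f4. Spi1, which encodes PU.1, had 107 in KO m2, 116 in KO m3 and 34 in WT m3. Cebpd did not follow the granule genes. It had 949 counts in WT m3 and 483 in WT f4, against 360 in KO m2 and 632 in KO m3. The other 2-week libraries held 0 to 204 counts of Cebpd. Cebpb had 81 in KO m2, 0 in KO m3 and 72 in WT f4. Only 1 of the 6 factors passed the filter here, and edgeR placed it lower in KO, at -1.53 (log2). Gfi1 was at 0 in all 17 libraries.

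Per kilobase of exon, which allows genes to be compared, S100a8 was the most abundant of the 10 in both male KO libraries, at 2078 CPM per kb in KO m2 and 1260.3 CPM per kb in KO m3. In KO m2 it was followed by S100a9 (1030.0), Ngp (629), Camp (605) and Lyz2 (259). In KO m3 the order was Camp (866), S100a9 (773), Ngp (576) and Lyz2 (200). At the other end, Mpo (67.9) and Lcn2 (68.3) were the lowest in KO m2, and Mpo (6.16) and Elane (6.93) the lowest in KO m3. Elane was above Ltf in KO m2 (115 against 85.1) and below it in KO m3 (6.93 against 88.3).

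Markers of other blood cells moved with the granule genes in part. The leukocyte list of 9 genes summed to 228 CPM in KO m2 (9 of 9 genes with at least 3 counts) and 138 CPM in KO m3 (7 of 9), against 3.20 to 51.4 CPM in the other 2-week libraries (2 to 3 genes). Ptprc, which encodes the CD45 that the sort selected against, had 464 counts in KO m2, 9 in KO m3 and 0 in the other 6. Itgam (CD11b) had 28 counts in KO m2, 0 in KO m3 and 10 in KO f4. Itgb2, its partner chain, had 911 in KO m2 and 786 in KO m3. Other genes of the list were not confined to these libraries at 2 weeks. Cd53 had 1376 counts in WT f1, against 63 in KO m2 and 955 in KO m3. Fcer1g had 716 in KO f1, against 434 and 1037. Tyrobp had 518 in KO f1, against 869 and 156, and Laptm5 had 578 in WT f1, against 743 and 0. Coro1a (2124 and 1032) and Cd52 (1137 and 1047) were highest in KO m2 and KO m3. The erythroid list summed to 1239 CPM in KO m2 and 773 CPM in KO m3, against 61.5 to 409 CPM. Their part in the granule result was not tested. At 4 weeks the erythroid list reached 2938 CPM, in KO m2, where the 10 granule genes summed to 73.2 CPM.

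The monocyte and macrophage list of 12 genes summed to 135 CPM in KO m2 (8 genes with at least 3 counts) and 25.5 CPM in KO m3 (4 genes), against 0.861 to 41.9 CPM in the other 2-week libraries. Ly6c2, a surface protein of inflammatory monocytes, made up most of the sum in KO m2, with 2365 counts (79.6 CPM) against 364 in KO m3 and at most 19.1 CPM in the other 2-week libraries. The macrophage genes Adgre1 (602 counts) and Mrc1 (324 counts) were seen in KO m2 alone at 2 weeks, and the complement gene C1qb, with 827 counts in WT f1, was at 0 in all 4 of the 2-week KO libraries. The defining gene Csf1r had 514 counts in KO m2 and 140 in KO m3, and 724 in WT m3. Ccr2 was at 0 in every library. Eosinophil, basophil and mast cell genes summed to 10.1 CPM in KO m2 and 0 in KO m3, where Prg2 had no count, against 0 to 23.3 CPM in the others. The B lineage list had 23.2 and 6.76 CPM against 0 to 16.5 CPM, with Cd79a at 636 counts in KO m2 and at 0 in the other 7. The T and NK list had 5.25 and 0 CPM against 0 to 1.05 CPM, and Cd3e was at 0 throughout. The megakaryocyte list had 13.3 and 0.0275 CPM against 0 to 82.8 CPM. The endothelial list had 5160.1 and 4828 CPM, within the range of the other 2-week libraries.

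**Figure D4:**
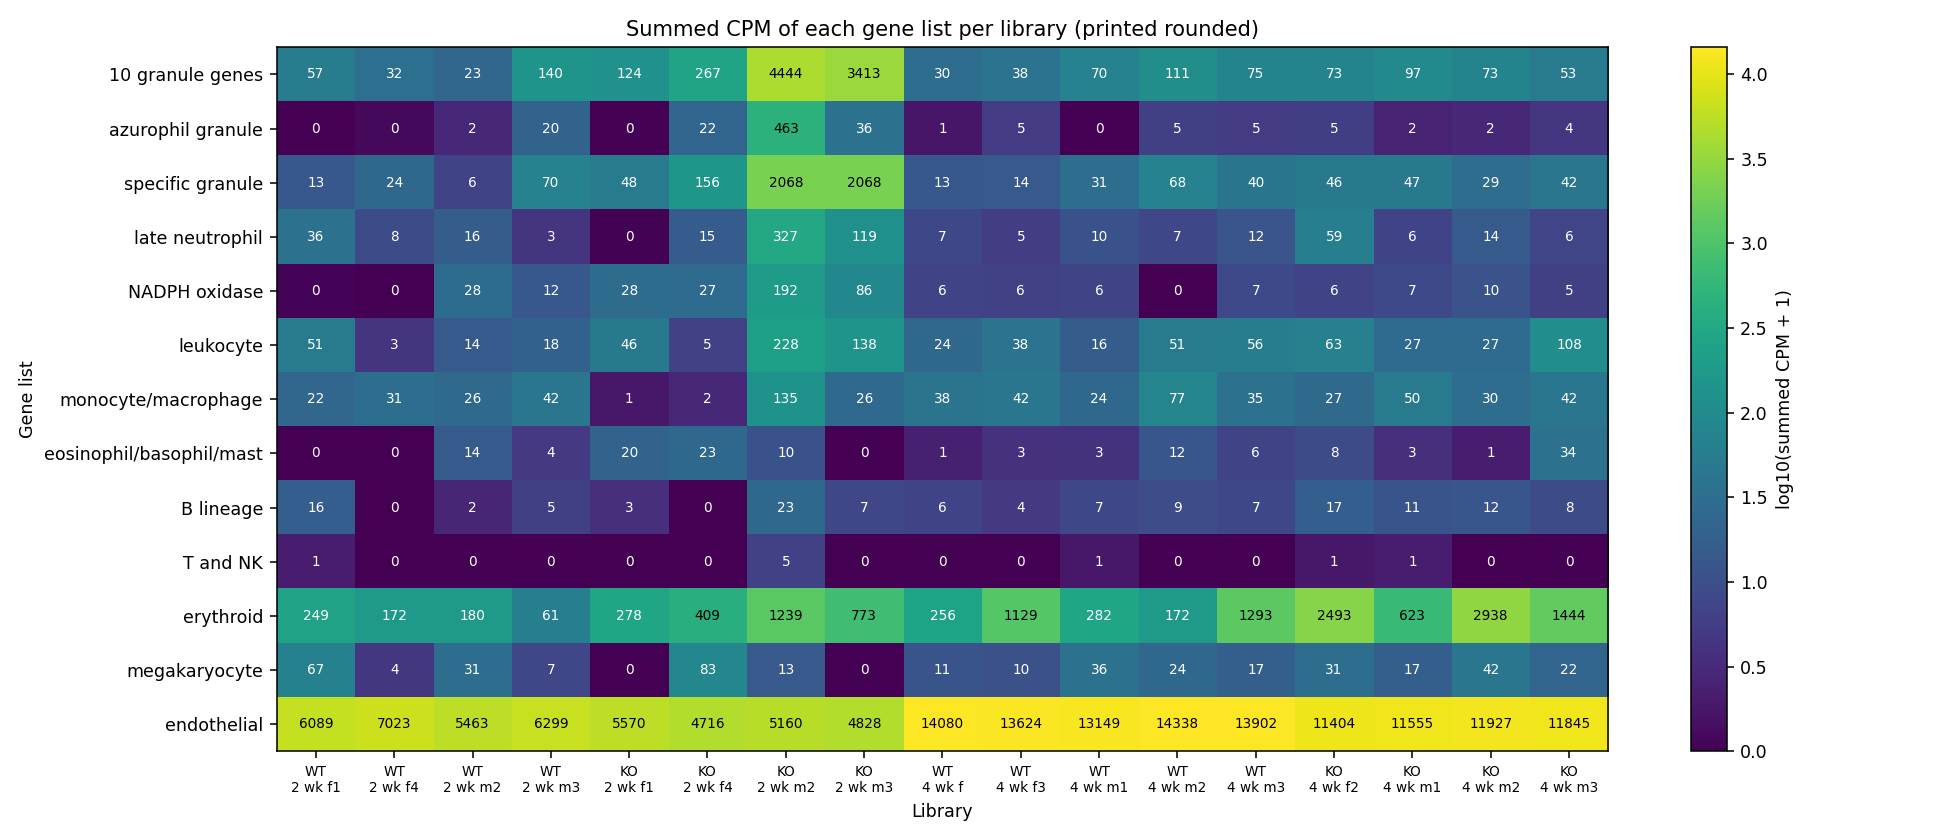
Summed CPM of 13 gene lists (rows) in the 17 libraries (columns), printed in each cell and coloured by log10 of the sum plus 1. The granule, oxidase and leukocyte rows are highest in KO m2 and KO m3 at 2 weeks, whereas the erythroid row is highest in KO m2 at 4 weeks.

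At 4 weeks the granule genes were at a low level in every library and did not differ between genotypes by test. Their sum was 30.3, 37.9, 69.8, 111 and 75.1 CPM in WT f, f3, m1, m2 and m3, and 73.0, 96.6, 73.2 and 52.6 CPM in KO f2, m1, m2 and m3. The KO range lay inside the WT range, and all 9 libraries were at or below the level of the highest 2-week WT library. The means were 73.8 ± 18.0 CPM in KO (SD, n = 4) and 64.9 ± 32.4 CPM in WT (SD, n = 5), a 1.14-fold ratio. In females KO f2 was 2.14-fold above the mean of 2 WT libraries, and in males the ratio was 0.868. The 9 libraries were put into 2 clusters by the sign of their first principal component, a split that does not test whether clusters exist. Within these the ratio was 1.11 and 1.21.

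Of the 10 genes, 9 passed the filter at 4 weeks and 0 were called, with an adjusted p of 0.9997 for each in edgeR's quasi-likelihood test with Benjamini-Hochberg adjustment. The background was 0.0% of the 15209 genes tested (422 at an unadjusted p under 0.05), and DESeq2 called 17 genes and limma voom 0. None of the 10 had an unadjusted p under 0.05, and over the alternatives their smallest adjusted p in any of these tools was 0.845, for Camp. Of the 10, none had all KO libraries above all WT libraries, against 0.664% of all genes. The KO mean was higher for 6 and lower for 4. On simulated 4-fold changes the 4-week fit recovered 46.5% of 200 genes, so changes of that size would often be missed.

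Among the azurophil genes at 4 weeks, Mpo had 0.237, 4.52, 0, 0.0642 and 1.71 CPM in WT f, f3, m1, m2 and m3, and 2.59, 1.53, 0.149 and 3.37 CPM in KO f2, m1, m2 and m3. Its log2 fold change was 1.12 (SE 1.63). Elane was at 0 counts in 2 WT and 2 KO libraries and at no more than 1.86 CPM, in WT m2, and it did not pass the filter. The specific granule genes overlapped between the genotypes. Ngp had 3.26, 4.52, 2.08, 36.3 and 10.2 CPM in WT and 13.7, 13.3, 2.91 and 12.3 CPM in KO, in the same order, with a log2 fold change of 0.12 (SE 0.873). Camp had 0.623 to 9.04 CPM in WT (median 3.76) and 2.88 to 11.6 CPM in KO (median 6.05), with 0.90 (SE 0.799). Ltf had 0 to 13.2 CPM in WT and 2.09 to 5.57 CPM in KO, with 0.02 (SE 1.19), and Lcn2 had 1.22 to 7.95 and 2.05 to 8.36 CPM, with 0.33 (SE 0.535).

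S100a8 had 9.87, 4.45, 24.6, 34.1 and 13.1 CPM in the WT libraries at 4 weeks and 18.9, 29.6, 32.9 and 4.97 CPM in the KO libraries, in the same order. Its log2 fold change was 0.41 (SE 0.579). Both extremes of S100a8 were close to equal between the genotypes. S100a9 had 1.26 to 15.6 CPM in WT and 3.60 to 13.02 CPM in KO, with 0.30 (SE 0.606). Lyz2 had 7.23 to 19.3 CPM and 6.05 to 21.2 CPM, with 0.02 (SE 0.460). Retnlg, at no more than 3.60 CPM, had the one negative value, -1.76 (SE 1.92). Of these values, those of S100a8 (-0.09), S100a9 (-0.18), Ngp (-0.73), Camp (-0.17) and Ltf (-0.55) turned negative without KO f2, the single KO female. Ngp and Ltf also turned negative without WT f, WT f3 or WT m1 (-0.28 to -0.07) and without the sex term, Ltf without KO m2 (-0.03) and with a term for the clusters (-0.04), and Lyz2 under 7 of 18 alternatives (lowest -0.23, without KO m1).

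**Figure D5:**
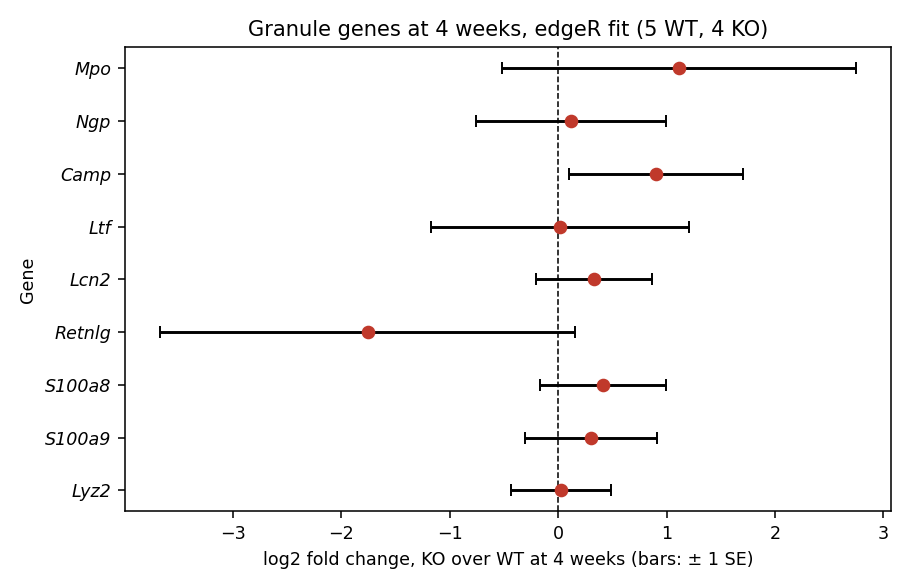
Log2 fold change of KO over WT at 4 weeks (horizontal axis, points with bars of 1 SE) for the 9 genes that passed the filter (vertical axis), from edgeR with 5 WT and 4 KO libraries. The points lie between -1.76 (Retnlg) and 1.12 (Mpo), and every adjusted p was 0.9997.

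Of the azurophil, specific, late, oxidase and transcription factor lists, no gene outside the 10 was called at 4 weeks or had an unadjusted p under 0.05 in edgeR. None of the 3 other azurophil genes passed the filter. Of the 7 other specific granule genes 3 were tested, all with positive log2 fold changes, from 0.07 to 1.01, against a median of 0.01 over all genes. Of the 17 other late genes 4 were tested, 3 of them positive, and of the 5 oxidase genes 3 were tested, 2 of them positive. Pglyrp1 had a log2 fold change of 0.83 (SE 0.480) and Chil3 of 1.01 (SE 1.20). At this time Cebpd, a factor also expressed in endothelium, had 563 to 1475 counts in WT and 939 to 1818 counts in KO.

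Among all genes with a mean count of at least 50 over the 8 2-week libraries, the patterns most like that of the 10 genes were sought by the correlation of log2 CPM with the mean of the 10. The highest Pearson r were 0.959 for 9930104L06Rik, 0.951 for Chml, 0.950 for Tmem68, 0.950 for Ctsg, 0.949 for Uty, 0.944 for Selplg, 0.944 for Jade3, 0.940 for Ifitm1, 0.936 for I830127L07Rik and 0.934 for Mmp14. In all 11753 genes, 76 had r above 0.9. Of the 10 named, Ctsg is an azurophil granule protease and Selplg encodes the selectin ligand of leukocytes, whereas Uty, a gene of the Y chromosome, and Chml, Tmem68 and Jade3 are not known as neutrophil genes. Most had counts in KO m2 and KO m3 and close to none elsewhere, for example 372 and 121 of Selplg against at most 1 in the other 6. The correlations describe 8 libraries, 2 of which set the pattern, and share their depth and many zero counts.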

How the data were processed

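RNA of sorted bone marrow endothelial cells was sequenced in 17 libraries with SmartSeq2, which amplifies polyadenylated RNA without molecular identifiers. The deposited values are raw counts per Ensembl gene. Trimming, alignment and counting used cutadapt, STAR and HTSeq 0.6.1p1 on GRCm38 (mm10), per the submitters' processing notes; annotation and strand setting are not given in the sources used here. GENCODE M21 named 49326 of 49585 identifiers. Of 114 list symbols 113 matched.

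Groups came from the genotype and time labels, and no label states that each library is a separate animal, so p-values measure the spread between these libraries. No 2 libraries of a group agreed within sampling noise. CPM uses the library total. Each time was fitted alone with edgeR 4.0.16 (R 4.3.3; filterByExpr, TMM, quasi-likelihood test, sex term), with Benjamini-Hochberg adjustment over all genes at 0.05. DESeq2 1.42.0, limma 3.58.1 voom, other scalings, filters and each library left out were alternatives. Sensitivity was tested on simulated data. The genes named were the 10 members, listed genes of the granule programme, the most abundant genes and defining markers of the other lists, and the 10 genes most like the members. Members and lists were chosen with earlier results of these data known.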

Additional observations from a re-analysis of the deposited data

Results flagged for a closer look

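In 44 groups of 4 or 5 libraries (the members and their sum at each genotype and time), 10 held a library set apart from the rest by Dixon's criterion. Chance alone would set apart about 1 in 20 groups, but that share does not hold for the 4 groups whose other 3 libraries were at 0 counts, and the 6 groups at 2 weeks come from the values that chose the genes and are given as description. Of the 10, 4 were set by 2-week WT m3, in genes at or near 0 in the other WT libraries: Ltf at 5.86 CPM, Elane at 0.901 CPM, Mpo at 17.2 CPM and Retnlg at 3.18 CPM. The 2-week WT library f4 stood apart in Lcn2, at 17.0 CPM, with 0 counts in the other 3. The 2-week KO library m2 stood apart in Mpo, at 232 CPM. At 4 weeks WT m2 stood apart in Ngp (36.3 CPM) and Elane (1.86 CPM), and KO m2 was low in Ngp (2.91 CPM) and high in Elane (1.46 CPM).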

How the results depend on the processing

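The number of genes called was 0 at both times in edgeR under every scaling, filter, covariate and left-out library tried (range 0 to 0), and 149 (54 higher, 95 lower) with DESeq2 and 12 (3 higher, 9 lower) with voom at 2 weeks, and 17 (11 higher, 6 lower) with DESeq2 at 4 weeks; the cause was not tested. On simulated 4-fold changes the 2-week fit recovered 2% of 200 genes. The log2 ratio of summed granule CPM at 2 weeks was 5.03, from 4.33 (without KO m2) to 5.79 (without WT m3) with 1 library left out, and 1.63 without KO m2 and KO m3 together. At 4 weeks it was 0.19, from 0.01 to 0.47 with 1 library left out. The log2 ratio of specific to azurophil CPM, 2.86 in KO f4, 2.16 in KO m2 and 5.86 in KO m3, was 2.04, 2.30 and 6.02 with the members alone, 2.57, 2.57 and 6.40 per kilobase of exon, and 2.29, 2.49 and 6.55 without Ngp and Mpo, the most abundant gene of each class over these libraries. In KO f4 Mpo was already at 0 and Elane gave all azurophil counts, so its 2.29 tests the specific side only, and without Elane it has no ratio. KO m3 had the highest ratio in each setting. Libraries with the same number in both genotypes share only a number: their deviations correlated at -0.0210 to 0.0446 at 2 weeks and 0.0280 to 0.210 at 4 weeks. Only f1 at 2 weeks and m3 at 4 weeks correlated best with their own number in both directions. At 2 weeks KO m3 also correlated best with WT m3, but WT m3 did not correlate best with KO m3. With the replicate block 0 genes were called at both times (286 and 651 at an unadjusted p under 0.05). The fit without KO m2 and KO m3 and the cluster term were added after seeing the data.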
